A study of Homo sapiens with 4 samples.

Results

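Transcripts of 10 human genes around TXNIP and glucose uptake were followed in BJ fibroblasts: TXNIP and ARRDC4, the transcription factor MLXIP, the glucose transporters SLC2A1 and SLC2A3, the hexokinases HK1 and HK2, the regulatory enzymes PFKFB3 and PFKFB4, and LDHA. The genes were chosen by name with their values in this contrast of Dox with control already known, so those values are given as a description, without p-values. All 10 had a row among the 58870 genes of each deposited table, and all 10 passed the filter on low counts that left 16749 tested genes. BJ is an established line of human foreskin fibroblasts. Total RNA came from 2 libraries of cells given the solvent DMSO, titled young control, and 2 libraries of cells given 250 nM of an agent named in the labels only as Dox, titled aged. Exposure lasted 24 hours and was combined with 10 days of further culture, which the series design places after the exposure, leaving the cells to senesce. All cells grew in MEM with fetal bovine serum and antibiotics, and the labels do not give the glucose content of the medium at harvest. Whether the replicates are separate cultures is not in the labels, and the p-values speak only of the spread among these libraries, which may be technical.

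TXNIP, an alpha-arrestin, binds thioredoxin and limits glucose uptake by helping to remove glucose transporters from the cell surface, and ARRDC4 is a related alpha-arrestin that also limits uptake. MLXIP, also called MondoA, pairs with MLX, responds to glucose 6-phosphate and activates TXNIP and ARRDC4 through a carbohydrate response element, which is built from 2 E boxes separated by 5 bases. Downstream, hexokinases trap glucose as glucose 6-phosphate, the bifunctional PFKFB enzymes set the level of an activator of phosphofructokinase, and LDHA turns pyruvate into lactate.

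Promoter sequences from RefSeq (GRCh38.p14), reaching from 250 bases before to 50 bases after a start site, were found for 9 of the 10 genes, in 19 windows. The windows of TXNIP (chr1:145996530-145996829, minus strand) and ARRDC4 (chr15:97960453-97960752, plus strand) are shown because these were the 2 genes with the largest changes. Capitals mark the E box CACGTG, or 2 copies of it that are separated by 5 bases with at most 1 mismatch in each copy.
TXNIP promoter: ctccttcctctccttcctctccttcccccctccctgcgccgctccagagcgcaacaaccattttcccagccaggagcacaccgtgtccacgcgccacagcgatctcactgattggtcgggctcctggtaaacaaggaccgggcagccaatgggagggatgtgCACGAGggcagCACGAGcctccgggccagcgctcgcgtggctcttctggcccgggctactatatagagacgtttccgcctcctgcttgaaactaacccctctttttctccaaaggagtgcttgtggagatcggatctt
ARRDC4 promoter: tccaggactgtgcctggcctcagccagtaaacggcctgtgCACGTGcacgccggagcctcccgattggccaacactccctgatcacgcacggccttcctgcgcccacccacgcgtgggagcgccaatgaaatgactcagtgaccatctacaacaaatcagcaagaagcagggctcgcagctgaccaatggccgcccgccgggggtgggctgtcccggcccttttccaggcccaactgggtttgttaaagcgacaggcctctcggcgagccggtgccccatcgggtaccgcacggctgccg

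The pair of E boxes in the TXNIP window lay at -88 to -72 from the start site. Searched on both strands, this spaced pair was present in 0.421% of the 35116 RefSeq windows of the same length, and among the 19 windows of these genes only in this window of TXNIP. The mismatch allowance was set with the known element of TXNIP in view, so the match is a description. ARRDC4 held an exact E box at -210 to -205, which 7.26% of all windows hold. Exact E boxes also lay in 1 window each of HK2, PFKFB3 and LDHA. For HK2 (chr2:74834920-74835219) and PFKFB3 (chr10:6202682-6202981) this was window 2, downstream of window 1, which held no E box. Positions are counted from the start site of the window that holds the E box. These E boxes are shown with 15 bases on either side and the E box in capitals.
HK2 at -194: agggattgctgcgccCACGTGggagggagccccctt
HK2 at -149: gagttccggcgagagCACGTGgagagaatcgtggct
PFKFB3 at -108: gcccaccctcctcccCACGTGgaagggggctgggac
LDHA at -185: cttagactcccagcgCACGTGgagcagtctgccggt
LDHA at -87: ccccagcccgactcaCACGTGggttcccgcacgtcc

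The core ACGTG of the hypoxia response element, which overlaps the E box, occurred in 21.4% of all windows and in windows of TXNIP, ARRDC4, HK2, PFKFB3 and LDHA. The single windows of MLXIP, SLC2A1 and PFKFB4 and the 7 windows of HK1 held none of these letters.

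Expected counts summed to between 42744729 and 47798920 per library. The control libraries differed from each other by more than sampling noise (chi-square per degree of freedom 2.40), and the Dox libraries far more (60.5). The log2 ratio of Dox replicate 1 to replicate 2 followed transcript GC content over 16717 genes (Spearman rho = -0.590, against -0.0296 for the controls, genes not being independent replicates). Protein-coding genes held 9.11% to 14.9% of TPM and the short RNAs RN7SL1 and RN7SL2 together 33.0% to 43.9%. Libraries are compared below in CPM, a library-scaled count corrected with edgeR's TMM factors, while genes are compared with each other in TPM, which allows for length, within a library. A gene is called where edgeR's quasi-likelihood test gave an adjusted p under 0.05, as it did for 30.3% of all tested genes. All 11 fibroblast markers had at least 10 counts in every library. Their summed levels were 30211 and 29803 CPM in the controls and 22612 and 27688 CPM in Dox. COL1A2 made up the largest part, at 15420 and 15281 CPM and then 10486 and 13349 CPM. COL1A1, COL1A2, COL3A1, PDGFRA and PDGFRB were lower in both Dox libraries. DCN, LUM, THY1, S100A4 and VIM were higher in both, and FAP overlapped. Endothelial, melanocyte and keratinocyte markers were at or near 0, apart from KRT10 at 9.85 to 12.3 CPM. The leukocyte markers summed to 6.48 and 6.14 CPM in the controls and 26.3 and 28.5 CPM in Dox. CD68 made up most of this sum (5.57 to 6.02 CPM, then 23.9 to 26.1 CPM). PTPRC was at 0.216 to 0.235 CPM and then 1.83 to 2.10 CPM. CD14 overlapped between groups (0.240 and 0.341 CPM, then 0.327 and 0.529 CPM), and CD3E was at 0 in every library. The part of these markers in the results below was not tested.

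TXNIP (ENSG00000265972.5, chromosome 1, 145992435 to 145996600, minus strand in GENCODE 29 on GRCh38) was much lower after Dox. Expected counts of TXNIP were 9041 and 10351 for the controls against 1488 and 1625 for Dox, which is 217 and 221 CPM against 34.8 and 35.8 CPM. Both Dox libraries lay far below both controls, and the replicates of each group lay close together. The group means were 219 ± 2.94 CPM and 35.3 ± 0.727 CPM (SD, n = 2 each), and the fitted log2 fold change was -2.63 (SE 0.07), a level 6.19-fold lower in Dox. Each Dox library was 6.05- to 6.35-fold below each control library. Of 16749 tested genes, TXNIP had the 32nd lowest fold change. In bulk RNA such as this, fewer cells expressing a gene and less RNA per cell cannot be told apart.

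ARRDC4 (ENSG00000140450.9, chromosome 15, 97960698 to 97973838), the relative of TXNIP, was also lower, but by less. Its counts were 4953 and 5488 in the controls and 2420 and 2471 in Dox, or 119 and 117 CPM against 56.6 and 54.5 CPM. The groups did not overlap and the fitted log2 fold change was -1.09 (SE 0.07), a level 2.12-fold lower in Dox. The TPM of ARRDC4 over that of TXNIP was 0.378 and 0.368 in the controls but 1.11 and 1.05 after Dox. Per length, TXNIP was thus the more abundant of these arrestins in both controls, and ARRDC4 in both Dox libraries. The summed level of both genes was 335 and 338 CPM in the controls and 91.4 and 90.3 CPM in Dox.

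MLXIP (ENSG00000175727.14, chromosome 12, 122078722 to 122147347), the glucose-sensing transcription factor, was higher in Dox while the arrestin genes were lower. Its levels were 30.8 and 27.6 CPM in the controls and 41.4 and 42.9 CPM in Dox, from counts of 1284, 1294, 1772 and 1944. The groups did not overlap, and the fitted log2 fold change was 0.53 (SE 0.09), or 1.44-fold. The control libraries differed by 0.16 on the log2 scale, the widest gap between controls among the 10 genes. Without control replicate 2, whose level was the lower, the log2 fold change was 0.45 and MLXIP was no longer called.

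**Figure D1:**
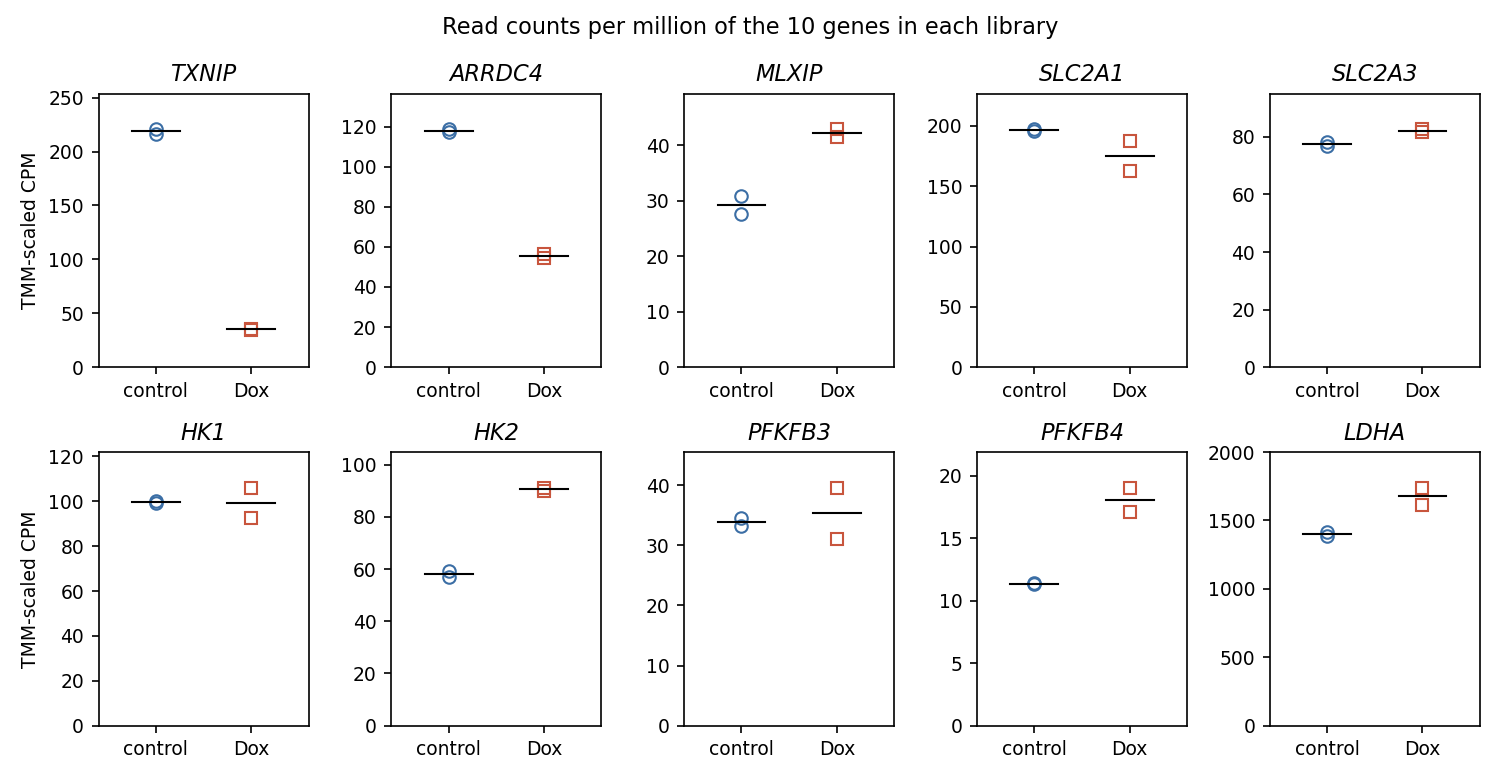
TMM-scaled CPM of each of the 10 genes (vertical axes start at 0 and differ between panels), with circles for the 2 control libraries, squares for the 2 Dox libraries and a line at each group mean. TXNIP and ARRDC4 sit lower in both Dox libraries, MLXIP, HK2, PFKFB4 and LDHA sit higher, and the Dox libraries straddle the controls for HK1 and PFKFB3.

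Neither glucose transporter was called. TXNIP and ARRDC4 act on such transporters at the protein level, which was not measured here. SLC2A1 (ENSG00000117394.21, chromosome 1, 42925375 to 42959176, minus strand), which encodes the widely expressed transporter GLUT1, was at 196 and 197 CPM in the controls and at 162 and 188 CPM in Dox. Both Dox libraries were below the controls, but they differed from each other by 0.21 on the log2 scale, more than the fitted change of -0.17 (SE 0.09). Without Dox replicate 2 the log2 fold change was -0.28, and without Dox replicate 1 it was -0.08. With offsets for GC trends it was -0.20 and SLC2A1 was called. That fit called more genes over all tested genes (3322 higher and 4618 lower, against 2764 and 2309 in the main fit). SLC2A3 (ENSG00000059804.16, chromosome 12, 7919230 to 7936275, minus strand), which encodes the high-affinity transporter GLUT3, was at 77.0 and 78.1 CPM in the controls and at 81.5 and 82.7 CPM in Dox, with a log2 fold change of 0.08 (SE 0.07). The Dox libraries lay above the controls by a small margin. The summed level of both transporters was 273 and 275 CPM in the controls and 244 and 270 CPM in Dox. In TPM, SLC2A3 stood at 0.434 and 0.427 of SLC2A1 in the controls and at 0.570 and 0.486 in Dox.

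HK2 was higher in Dox, while HK1 lay on both sides of the controls. HK2 (ENSG00000159399.9, chromosome 2, 74833981 to 74893359) encodes the inducible hexokinase. Its levels were 57.0 and 59.2 CPM in the controls and 89.9 and 91.2 CPM in Dox, from counts of 2380, 2776, 3846 and 4137. The groups were well apart, with a log2 fold change of 0.64 (SE 0.07), or 1.56-fold. HK1 (ENSG00000156515.23, chromosome 10, 69269984 to 69401884), the constitutive form, was at 99.0 and 100.1 CPM in the controls and at 92.4 and 106 CPM in Dox, on both sides of the controls. Its log2 fold change was -0.01 (SE 0.09), which became -0.11 without Dox replicate 2 and 0.08 without Dox replicate 1. The TPM of HK2 over that of HK1 was 0.361 and 0.386 in the controls and 0.645 and 0.570 in Dox, so HK1 remained the more abundant per length in all 4 libraries. Together the hexokinases summed to 156 and 159 CPM in the controls and 182 and 197 CPM in Dox.

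Of the PFKFB genes, PFKFB4 was higher in both Dox libraries and PFKFB3 was not. PFKFB4 (ENSG00000114268.12, chromosome 3, 48517684 to 48562015, minus strand) was at 11.4 and 11.4 CPM in the controls and at 17.1 and 19.0 CPM in Dox, from counts of 475, 533, 733 and 864. The groups did not overlap and the log2 fold change was 0.67 (SE 0.10), or 1.59-fold, the highest among the 10 genes. PFKFB3 (ENSG00000170525.21, chromosome 10, 6144934 to 6254644), whose enzyme has the strongest kinase activity of the family, was at 34.5 and 33.3 CPM in the controls and at 31.1 and 39.6 CPM in Dox. Its Dox libraries lay on either side of the controls and were 0.35 apart on the log2 scale, the widest replicate gap of the 10 genes. The log2 fold change was 0.06 (SE 0.12), and it was 0.21 with a call without Dox replicate 1 and -0.13 without Dox replicate 2. In TPM, PFKFB4 stood at 0.498 and 0.539 of PFKFB3 in the controls and at 0.712 and 0.703 in Dox.

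LDHA (ENSG00000134333.14, chromosome 11, 18394388 to 18408425), the lactate dehydrogenase subunit that prevails in glycolytic cells, was by far the most abundant of the 10 transcripts. It was at 1390 and 1416 CPM in the controls and at 1740 and 1614 CPM in Dox. The Dox libraries lay above both controls, and the log2 fold change was 0.26 (SE 0.07), or 1.20-fold. LDHA was no longer called without control replicate 1 (log2 fold change 0.23) or control replicate 2 (0.26), nor with upper quartile scaling (0.24).

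**Figure D2:**
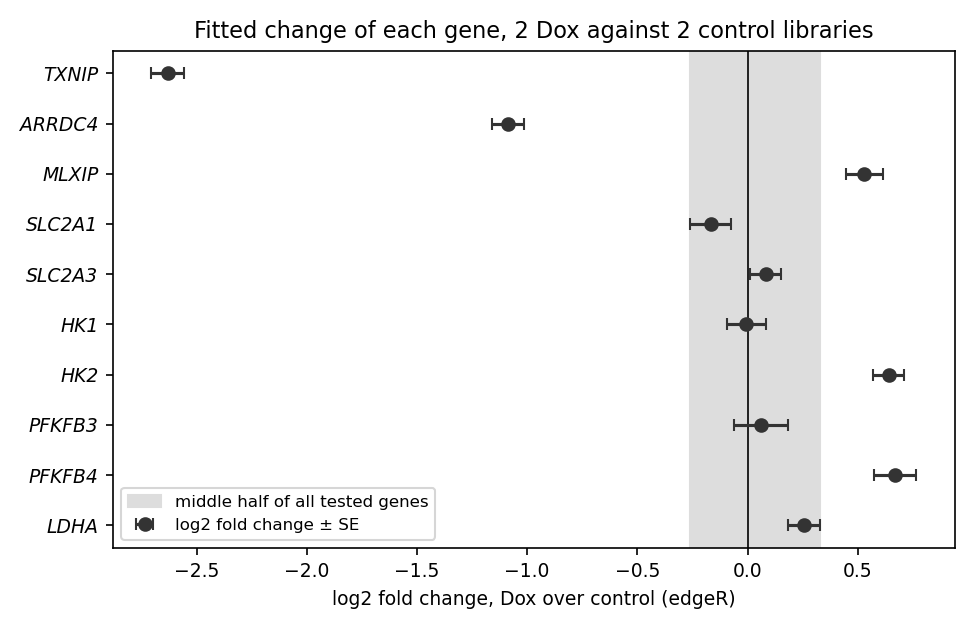
Fitted log2 fold change of Dox over control for each of the 10 genes (points, with bars of 1 SE from edgeR), over a grey band that holds the middle of all tested genes, from -0.26 to 0.33. TXNIP at -2.63 and ARRDC4 at -1.09 lie left of the band, MLXIP, HK2 and PFKFB4 right of it, and the other 5 genes inside it.

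By edgeR's quasi-likelihood test at an adjusted p under 0.05, 6 of the 10 genes were called, against 30.3% of all tested genes. Of these, 4 were called higher (MLXIP, HK2, PFKFB4 and LDHA), where the share over all genes was 16.5%, and 2 lower (TXNIP and ARRDC4), where it was 13.8%. The groups did not overlap for 8 of the 10, against 69.1% of all tested genes. Since the genes were chosen with this contrast known, nothing is read from these counts. Over all genes, 2764 were called higher and 2309 lower, and with offsets for GC trends 3322 and 4618. The median log2 fold change was 0.07 over the 10 genes and 0.00 (-0.0023) over all tested genes. At a fold threshold of 1.5 (glmTreat), TXNIP and ARRDC4 were called and the 4 higher genes were not. On log2(TPM + 1) and log2(TPM + 0.1) with limma, only TXNIP was called among the 10.

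The order of levels per length changed through TXNIP and ARRDC4. Both lay above HK1 and HK2 in both controls and below HK1 and HK2 in both Dox libraries. In control replicate 1, LDHA stood at 193 TPM, TXNIP at 22.7, SLC2A1 at 20.8, SLC2A3 at 9.01, ARRDC4 at 8.59, HK1 at 8.46, HK2 at 3.05, PFKFB3 at 2.55, and PFKFB4 and MLXIP at 1.27. The order was the same in control replicate 2, where PFKFB4 at 1.39 TPM lay just above MLXIP at 1.19. In both Dox libraries TXNIP was the 7th of the 10, below SLC2A1, SLC2A3, HK1, HK2 and ARRDC4. In Dox replicate 1 it stood at 3.25 TPM, beside 3.61 for ARRDC4 and 4.41 for HK2. Of neighbours in the control order, MLXIP (1.19 to 1.27 TPM) and PFKFB4 (1.27 to 1.39 TPM) met at their edges, and ARRDC4 (8.59 to 8.70 TPM) lay just above HK1 (8.46 to 8.52 TPM). The deposited TPM of TXNIP was 3.25 and 5.31 in the Dox libraries, which differ in their share of protein-coding TPM. Rescaled over protein-coding genes alone, an alternative added after the data were seen, it was 218 and 218 in the controls and 35.7 and 35.6 in Dox.

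**Figure D3:**
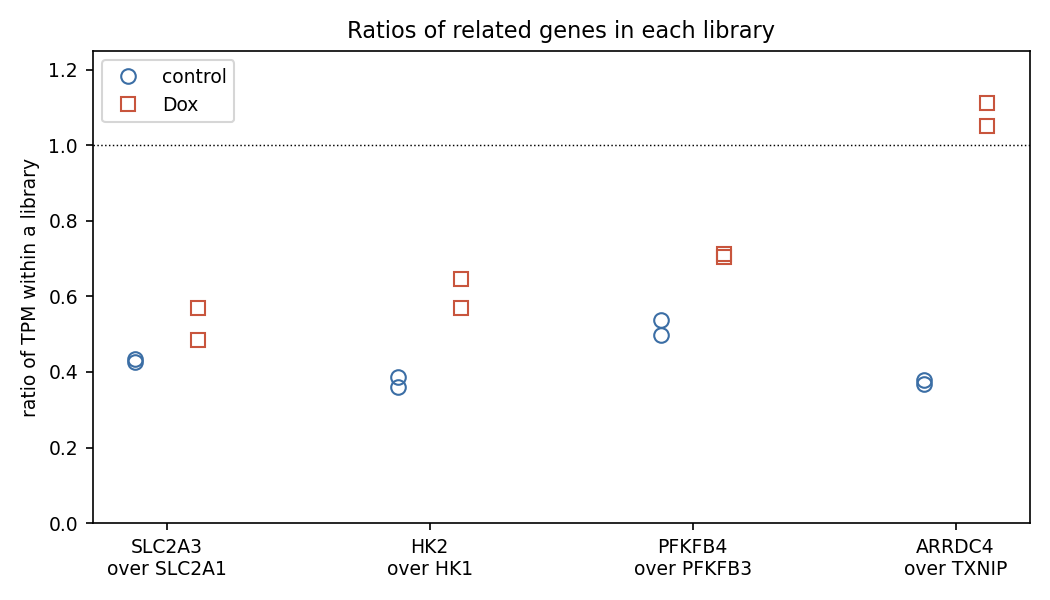
Ratio of TPM between related genes within each library, with circles for the 2 control libraries and squares for the 2 Dox libraries, and a dotted line at equal levels. Each ratio was written with the gene of higher known fold change on top, which fixes its direction. That of ARRDC4 over TXNIP was 0.378 and 0.368 in the controls and 1.11 and 1.05 in Dox.

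Each ratio has the gene with the higher known fold change on top, so its direction was fixed by how it was written and only its size in each library is described. With 2 libraries against 2, an exact two-sided permutation test of a single ratio cannot go below p = 0.333, and none was run. FPKM gave the same ratios within rounding.

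The deposited tables also hold a gene length, averaged over isoforms and differing between libraries where the isoform mix differs, which had no part in choosing the genes. For PFKFB3, with 19 listed isoforms, it was 3972 and 3906 bases in the controls and 3092 and 3804 bases in Dox. Both Dox values were lower, but the gap between the Dox libraries was larger than that between either control and Dox replicate 2, and Dox replicate 1 stood apart. HK2, with 3 isoforms, was at 5424 and 5373 bases in the controls and 5226 and 5289 in Dox, and MLXIP, with 11, at 6984 and 6855 and then 6774 and 6733. LDHA was also lower in both Dox libraries, by 0.281% on average. The lengths of TXNIP, SLC2A1, SLC2A3, HK1 and PFKFB4 overlapped between groups, and ARRDC4, with a single listed isoform, was at 4062 in every library. These estimates were not tested, and no isoform is named from them. The share of all genes whose lengths do not overlap between groups was not computed, so no shift of these genes is read from the lengths.

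Near-identical copies took few reads. SLC2A14, the close paralog of SLC2A3, had 0 expected counts in every library, so reads that fit both genes may have been assigned to SLC2A3. The pseudogene SLC2A3P1 held 6.32 and 74.9 counts in the controls and 0 and 48.9 in Dox, at most 2.04% of the count of SLC2A3. LDHAP4 held 102 to 171 counts, at most 0.234% of LDHA. The antisense gene SLC2A1-AS1 held 103 to 122 counts, 1.24% to 1.76% of the count of SLC2A1, and whether the counting used strand is not given in the sources used here.

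The tested genes whose profile was most like that of TXNIP, by the root mean square difference of log2 CPM centred over the 4 libraries, were AL121768.1 (0.0330), DACT1 (0.0380), ASPN (0.0615), HIST1H3G (0.0631) and MGP (0.0753). DACT1, a modulator of Wnt signalling, was at 40.3 and 40.9 CPM in the controls and 6.62 and 6.33 CPM in Dox. ASPN, which encodes the matrix protein asporin, was at 60.3 and 58.5 CPM and then 10.4 and 10.1 CPM. MGP, an inhibitor of calcification, was at 47.9 and 52.3 CPM and then 7.25 and 7.43 CPM. HIST1H3G shares sequence with other histone genes, so its value is uncertain. With 4 libraries in 2 groups, likeness here means a similar fold and little spread, and any gene lowered to this degree would score.

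Around these 10 genes, 8 lists of other genes of glucose metabolism and its control were tested in the same fit. Of their 121 tested genes, 25 rose, 11 fell and 85 did not pass, a share of 29.8% called beside the 30.3% of all tested genes. With limma on log2(TPM + 1) and on log2(TPM + 0.1), only 1 higher transporter gene and 2 higher and 1 lower hypoxia-inducible genes passed. Over all tested genes, calls in each direction were fewer without either control library and more without either Dox library than in the main fit. Call counts with a library left out are given below as sensitivity and are not read as results about the lists. Leaving out each library in turn, 14 of the 36 called genes stayed called every time, and 22 lost the call without at least 1 control library.

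Among other hexose and lactate transporters, 3 of 12 tested rose, 1 fell and 8 missed the threshold, with a median log2 fold change of 0.25 (all tested genes 0.00). SLC2A5, the fructose transporter, rose from 0.695 and 0.960 CPM to 2.13 and 2.34 CPM (log2 fold change 1.42, SE 0.23, edgeR adjusted p = 0.00583). SLC2A6 rose from 4.50 and 4.35 CPM to 6.85 and 8.42 CPM (edgeR adjusted p = 0.0104), but missed the threshold once control replicate 2 was dropped (0.0573, within 2.32e-13 to 0.578 over all its alternatives). SLC16A1, which encodes the lactate carrier MCT1, fell from 109 and 109 CPM to 82.1 and 78.5 CPM (edgeR adjusted p = 0.00624), and missed it once control replicate 1 (0.105) or control replicate 2 (0.123) was dropped, within 5.06e-31 to 1 over its alternatives. SLC16A3, which encodes the lactate exporter MCT4, was at 177 and 173 CPM and then 194 and 230 CPM and did not pass (edgeR adjusted p = 0.0814). The intestinal and insulin-responsive transporter genes SLC2A2, SLC2A4 and SLC5A1 had at most 8 counts in any library. Dropping 1 control library left 2 (without replicate 1) or 1 (without replicate 2) higher and 0 lower calls, and dropping 1 Dox library gave 6 or 5 higher and 2 or 1 lower calls.

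Of 20 tested other glycolytic enzymes, 6 rose, 1 fell and 13 did not pass (median 0.09). ENO2, the enolase first known from neurons, rose from 23.0 and 24.1 CPM to 42.9 and 45.9 CPM (log2 fold change 0.91, SE 0.08, edgeR adjusted p = 0.000735). ENO1, the widely expressed enolase, fell from 908 and 930 CPM to 630 and 740 CPM (edgeR adjusted p = 0.0187), so these isozymes went in opposite directions. ENO1 missed the threshold once either control library was dropped (edgeR adjusted p = 0.0978 without replicate 1 and 0.151 without replicate 2), within 4.16e-54 to 1 over its alternatives. ADPGK, a glucokinase that uses ADP, rose from 35.6 and 38.5 CPM to 49.9 and 53.2 CPM (edgeR adjusted p = 0.00726), and missed it once control replicate 1 (0.146) or control replicate 2 (0.0586) was dropped, within 8.14e-23 to 1 over its alternatives. The other 4 genes with a higher call, picked once their values were known, were TIGAR (0.78), which lowers the same activator that PFKFB enzymes make, PKM (0.47), GAPDH (0.35) and PFKM (0.34). TIGAR stayed called without each library in turn. PKM (edgeR adjusted p = 0.0951 without control replicate 1 and 0.0993 without control replicate 2), GAPDH (0.212 and 0.153) and PFKM (0.285 and 0.287) did not. Over all alternatives these ran from 1.41e-67, 1.79e-37 and 6.83e-17 to 1, and PFKM was also not called with upper quartile scaling (0.0509). LDHB, the partner subunit of LDHA, was near its control level (log2 fold change -0.01, SE 0.08), as was PGK1 (0.01, SE 0.07). Without either control library 2 rose and 0 fell, and without Dox replicate 1 or 2 there were 11 or 7 higher and 3 or 7 lower calls.

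**Figure D4:**
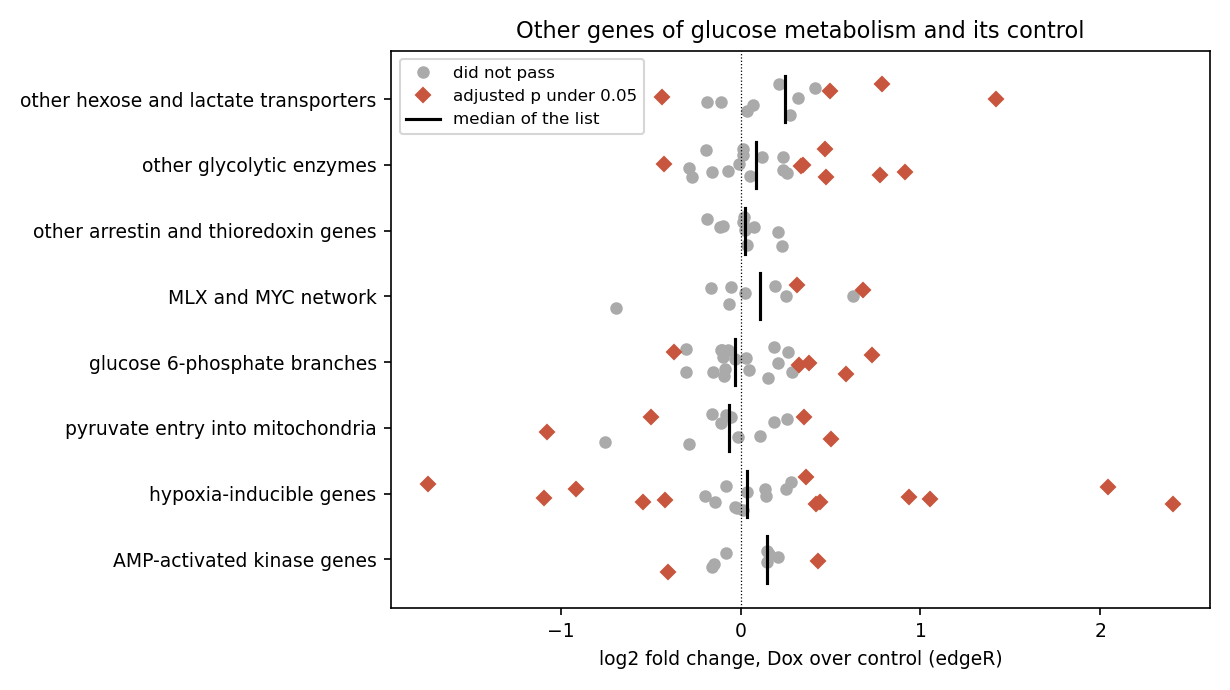
Fitted log2 fold change of Dox over control for each tested gene of the 8 lists (points, jittered vertically), with diamonds for an edgeR adjusted p under 0.05 and a black line at each list's median. The medians lie between -0.07 and 0.25, none of the 10 arrestin and thioredoxin genes passed, and the hypoxia-inducible genes spread from -1.74 to 2.40.

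None of the 10 other arrestin and thioredoxin genes passed by edgeR's quasi-likelihood test (median 0.02), and 0 had an unadjusted p under 0.05, as DESeq2 also called 0. The related alpha-arrestin ARRDC3 was at 101 and 102 CPM in the controls and 100.1 and 86.5 CPM in Dox (log2 fold change -0.12, SE 0.09). TXN, the thioredoxin that TXNIP binds, was at 94.6 and 95.3 CPM and then 105 and 88.6 CPM (0.02, SE 0.10). ARRDC1 and ARRDC2 had log2 fold changes of 0.07 (SE 0.19) and 0.02 (SE 0.17). Dropping Dox replicate 1 gave 1 higher and 2 lower calls in the list, and dropping Dox replicate 2 gave 2 and 2. In the MLX and MYC network, 2 of the 10 tested rose and 8 missed the threshold (median 0.11). The count that fell was 0 by edgeR and by DESeq2, with 1 lower at an unadjusted p under 0.05. MNT, an antagonist of MYC that can also pair with MLX, rose from 6.90 and 6.89 CPM to 10.9 and 11.2 CPM (log2 fold change 0.68, SE 0.10, edgeR adjusted p = 0.00451). MYC rose from 29.2 and 29.5 CPM to 34.5 and 38.6 CPM (edgeR adjusted p = 0.0376), and missed it once control replicate 1 (0.341) or control replicate 2 (0.318) was dropped, within 1.23e-10 to 1 over its alternatives. MLX, the partner of MLXIP, was at 22.6 and 23.6 CPM and then 23.1 and 23.8 CPM (0.02, SE 0.08), and MLXIPL, the relative of MLXIP known from liver, had at most 2 counts in any library. Without either control library 1 gene of the network rose and 0 fell, and without Dox replicate 1 or 2 there were 3 higher and 3 or 2 lower calls.

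Among genes of pathways that connect with glucose 6-phosphate outside glycolysis, 4 of 23 tested rose, 1 fell and 18 did not pass (median -0.03). UAP1, which makes UDP-N-acetylglucosamine, rose from 83.3 and 86.5 CPM to 145 and 137 CPM (log2 fold change 0.73, SE 0.08, edgeR adjusted p = 0.0012). GYS1, the muscle-type glycogen synthase, rose from 40.8 and 38.9 CPM to 56.4 and 63.1 CPM (edgeR adjusted p = 0.00408), and missed it once control replicate 2 was dropped (0.0519, within 6.68e-41 to 1 over its alternatives). UGP2, which makes UDP-glucose, fell from 145 and 149 CPM to 115 and 112 CPM (edgeR adjusted p = 0.0107), and missed it once control replicate 1 (0.168) or control replicate 2 (0.23) was dropped, within 1.54e-24 to 1 over its alternatives. Without control replicate 1 or 2 there were 2 or 1 higher and 0 lower calls, and without Dox replicate 1 or 2 there were 7 or 8 higher and 9 or 6 lower.

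For pyruvate entry into mitochondria, 2 of the 14 tested rose, 2 fell and 10 missed the threshold (median -0.07). PC, the pyruvate carboxylase, fell from 18.3 and 17.6 CPM to 6.55 and 10.4 CPM (log2 fold change -1.08, SE 0.20, edgeR adjusted p = 0.0107), with Dox replicate 1 the lower. PDHB, a subunit of pyruvate dehydrogenase, fell from 69.4 and 68.3 CPM to 49.6 and 47.9 CPM (edgeR adjusted p = 0.00349), and missed it once control replicate 1 (0.0566) or control replicate 2 (0.0521) was dropped, within 1.25e-29 to 1 over its alternatives. PDP2 and PDK3, a phosphatase and a kinase of that enzyme, rose by 0.50 (edgeR adjusted p = 0.033) and 0.35 (edgeR adjusted p = 0.0441), and both missed it once control replicate 1 (0.0912 and 0.203) or control replicate 2 (0.225 and 0.422) was dropped. Their alternatives ran from 5.83e-14 to 1 and from 6.16e-09 to 1. AMP-activated kinase marks TXNIP for degradation. The list named after it also holds genes that do not encode its subunits, STRADA among them. In that list 7 of 9 did not pass (median 0.15). STRADA rose by 0.43 (edgeR adjusted p = 0.0456) and the subunit gene PRKAB2 fell by 0.40 on the log2 scale (edgeR adjusted p = 0.0106). Both missed it once control replicate 1 (0.227 and 0.161) or control replicate 2 (0.202 and 0.117) was dropped, with alternatives from 2.17e-14 to 1 and from 1.54e-19 to 1. Without either control library 0 pyruvate genes rose and 1 fell, and 0 kinase genes were called. Without Dox replicate 1 or 2 there were 3 or 5 higher and 6 or 3 lower pyruvate genes, and 3 or 4 higher and 2 or 3 lower kinase genes.

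SLC2A1, HK2, PFKFB3, PFKFB4 and LDHA are also known to be hypoxia-inducible. Other genes of that response went both ways: 7 of 23 rose, 5 fell and 11 did not pass (median 0.04). These counts include the factors HIF1A (fell), EPAS1 (rose) and ARNT (did not pass). CA12, a membrane carbonic anhydrase, rose from 2.80 and 2.39 CPM to 13.8 and 13.6 CPM (log2 fold change 2.40, SE 0.13, edgeR adjusted p = 0.000132). ADM, the vasodilator peptide adrenomedullin, rose from 202 and 206 CPM to 364 and 417 CPM (edgeR adjusted p = 0.000938). DDIT4, an inhibitor of mTORC1 signalling, fell from 130 and 131 CPM to 34.1 and 44.2 CPM (log2 fold change -1.74, SE 0.13, edgeR adjusted p = 0.000376). ANKRD37 fell from 5.82 and 6.29 CPM to 2.78 and 2.89 CPM (edgeR adjusted p = 0.0027). Of the factors themselves, named after their values were seen, HIF1A fell by 0.54 (SE 0.08) and EPAS1 rose by 0.44 (SE 0.07), while the shared partner ARNT stood at -0.02 (SE 0.07). EPAS1 missed the threshold once either control library was dropped (edgeR adjusted p = 0.128 without replicate 1 and 0.183 without replicate 2), within 1.25e-35 to 1 over its alternatives. Without either control library 4 rose and 4 fell, and without Dox replicate 1 or 2 there were 12 or 9 higher and 8 lower calls.

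The difference between the Dox libraries touched the 10 genes unequally. The GC content of their longest GENCODE 29 transcript ran from 43.4% (ARRDC4) to 57.9% (MLXIP), and over the 10 genes it followed the log2 difference of Dox replicate 2 from replicate 1 (Spearman rho = 0.709, n = 10 genes that share the same libraries), against -0.564 for the controls. TXNIP, ARRDC4 and LDHA, at 43.4% to 44.0% GC, differed between Dox libraries by 0.04, -0.05 and -0.11, whereas SLC2A1 (54.8% GC), HK1 (53.0%) and PFKFB3 (55.7%) differed by 0.21, 0.20 and 0.35. The relation was not uniform: MLXIP, with the highest GC content, differed by 0.05, HK2 (51.2%) by 0.02, SLC2A3 (45.8%) by 0.02 and PFKFB4 (56.8%) by 0.15. The part of GC content in the values of SLC2A1, HK1 and PFKFB3 was not tested gene by gene. With offsets for the GC trends the log2 fold change of TXNIP was -2.70 and that of ARRDC4 -1.15. The median over all tested genes was also lower with these offsets, at -0.0674 against -0.0023 in the main fit.

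**Figure D5:**
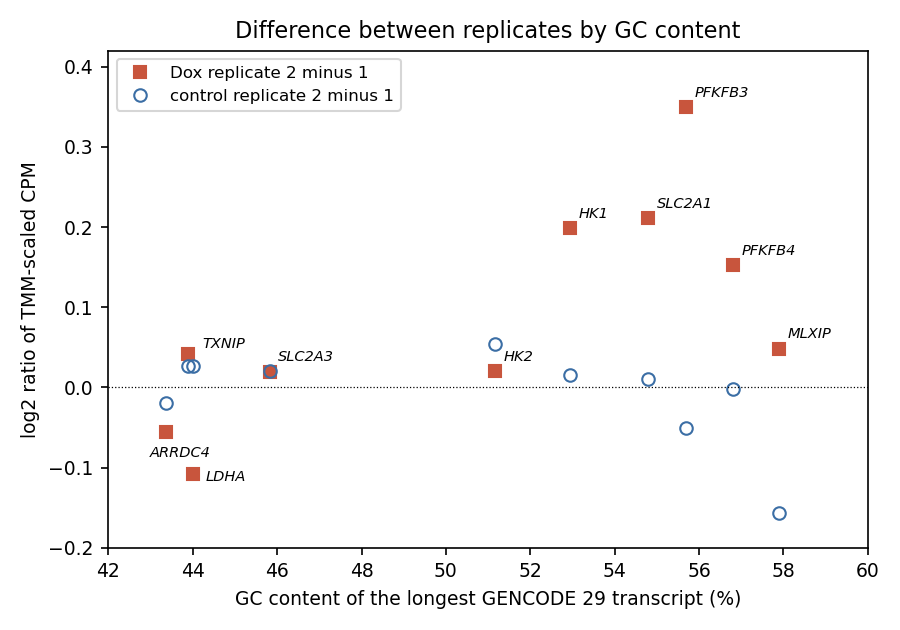
Log2 ratio of replicate 2 to replicate 1 in TMM-scaled CPM against the GC content of the longest transcript, for the 10 genes, with filled squares for the Dox libraries and open circles for the controls. PFKFB3, SLC2A1 and HK1 lie highest for Dox, at 0.35, 0.21 and 0.20, MLXIP lies at 0.05 despite the highest GC content, and the gaps between controls reach 0.16 at most in size, for MLXIP.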

How the data were processed

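Expression was measured by sequencing total RNA in 4 libraries, grouped by their titles. The submitters' processing notes list RSEM, STAR, cutadapt and Picard with the hg38 genome, and their order and annotation were not given in the sources used here. Per the file headers, the deposited values are expected counts (estimated reads per gene), TPM, FPKM and gene lengths in bases. Depth ran from 42744729 to 47798920 expected counts.

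Expected counts were rounded, filtered with filterByExpr (minimum count 10, minimum total 15), scaled with TMM factors, and compared by edgeR's quasi-likelihood test with group as the only term and Benjamini-Hochberg adjustment over all 16749 tested genes (threshold 0.05). The SE is the fold change over the square root of F. The test was checked on simulated data. Software was Python 3.11.15 and R 4.3.3 with DESeq2 1.42.0, limma 3.58.1 and edgeR 4.0.16. By Ensembl ID, 99.5% of genes matched GENCODE 29.

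The genes, lists and tests were chosen with earlier results of these data known. Named beyond the 10 genes were the 2 called genes with the smallest adjusted p per list and direction and the 5 profiles nearest to TXNIP (prior count 2); all others were named after their values were seen. Alternatives were other scalings, filters and tests, the replicate block, GC offsets and each library left out. A planned comparison of protein sequences was not run. One listed gene, PGLS, is not analysed here.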

Additional observations from a re-analysis of the deposited data

How the results depend on the processing

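The fold change of TXNIP lay between -2.70 and -2.22 over 14 alternatives and that of ARRDC4 between -1.15 and -0.81. MLXIP (0.44 to 0.67), HK2 (0.60 to 0.80), PFKFB4 (0.55 to 0.81) and LDHA (0.19 to 0.40) kept their direction in all 14. HK1 and PFKFB3, which were not called, kept theirs in 11 and 13. The median of all tested genes was 0.12 with no filter, 0.13 on log2(TPM + 0.1) and -0.07 with GC-trend offsets. With 1 library left out the lone sample of a group is assumed to vary like the others. The cause of the changes below was not tested.

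With each library left out in turn, 1368 to 4654 genes were called higher and 1000 to 5017 lower, and of the 10 genes 2 to 5 and 2 to 4. For the lists, higher and lower calls ran from 1 to 6 and 0 to 2 (transporters), 2 to 11 and 0 to 7 (glycolytic enzymes), 0 to 2 and 0 to 2 (arrestins and thioredoxins), 1 to 3 and 0 to 3 (MLX and MYC network), 1 to 8 and 0 to 9 (glucose 6-phosphate branches), 0 to 5 and 1 to 6 (pyruvate entry), 4 to 12 and 4 to 8 (hypoxia) and 0 to 4 and 0 to 3 (AMP-activated kinase). At a 1.5-fold threshold 787 genes were higher and 480 lower, 0 of the 10 genes were higher, and the counts were 1 and 0 for transporters, 1 and 0 for glycolytic enzymes, 4 and 2 for hypoxia genes and 0 and 0 for the other lists. With limma on log2(TPM + 1) and log2(TPM + 0.1), 596 and 637 genes were higher and 198 and 198 lower, 0 of the 10 genes were higher and 1 lower, 1 transporter was higher, 2 hypoxia genes were higher and 1 lower, and 0 genes of the other lists passed. With GC-trend offsets 4618 genes were lower, 5 transporters were higher, and 2 transporters, 5 glycolytic enzymes, 1 arrestin or thioredoxin gene, 2 network, 8 branch, 6 pyruvate, 8 hypoxia and 3 kinase genes were lower. With no filter 5 transporters were higher, and 2 glycolytic, 1 network and 3 branch genes were lower. Upper quartile scaling gave 2 lower branch genes, 1 higher pyruvate gene and 0 higher kinase genes, and DESeq2's Wald test 5 higher transporters, 2 lower branch genes and 1 higher pyruvate gene.

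The replicate numbers share only a label: deviations of same-numbered libraries correlated at 0.0383. With the replicate block 2972 genes were higher and 2511 lower, LDHA was no longer called, so that 3 of the 10 genes were higher, and 1 network gene and 3 branch genes were lower.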
